A study of Mus musculus with 2 samples.

Results

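RAB proteins are small GTPases of vesicle traffic, and their mRNA levels were compared in RAW 264.7 cells, a mouse macrophage-like tumour cell line, after IFN-gamma with or without adenosine. The members were all probe sets whose single gene symbol in the platform annotation was Rab, a number and at most 1 further letter with or without a number. Regulators with longer names, such as Rab3gap1 and the Rab11fip genes, were left out. The rule found 95 probe sets of 50 genes, among 12393 genes with a symbol of their own on the array. The rule uses names and no measured value, but it was chosen with earlier results of these data known.

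A single cell line was used. 1 group received IFN-gamma at 1000 U/ml for 4 h, and the other received the same IFN-gamma with adenosine at 300 uM for 4 h. Each treatment was hybridized to 1 Affymetrix array with RNA combined from 2 experiments, and no difference has a replicate check. IFN-gamma was present in both groups, and cells without it are not analysed here. The labels leave unstated what the adenosine was added for. The comparison sets adenosine against its absence in IFN-gamma-treated cells.

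A RAB protein cycles between a GDP-bound form held in the cytosol and a GTP-bound form on a membrane, where it recruits effectors that move, tether or fuse vesicles. Guanine nucleotide exchange factors (GEFs) load GTP, GTPase-activating proteins (GAPs) end the active state, and a geranylgeranyl anchor with its escort and GDP dissociation inhibitor (GDI) proteins takes the protein on and off membranes. In macrophages RAB proteins steer the maturation of phagosomes, the recycling of receptors, the secretion of cytokines and the traffic of antigen-presenting molecules.

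Signals are linear intensity values. The adenosine array was dimmer, with a median of 15.2 against 45.9 over 22626 gene probe sets. Its signals were therefore multiplied by 2.82, which sets the median log2 ratio of probe sets bright on both arrays to 0, and its signals below are scaled in this way except where named as deposited. Low signals were bounded at 44.0, a floor taken from the scaled signals themselves (their 50th percentile), which is a convention and not a detection limit. A gene with both signals below it was not counted as measured, and a single signal below it was raised to it, so that the fold is a lower bound. The SD of a log2 ratio between probe sets of the same gene, over 2375 genes, was 0.52, and values are read against it here. It compares probe sets on the same 2 arrays and leaves out variation between cultures and between arrays. It is therefore not a replicate error. The sign of a difference can depend on the scaling, and not only where the difference is small. A Rab40c probe set with a log2 ratio of 1.27 was at -0.22 as deposited. As deposited, 1 of 35 measured RAB genes was brighter on the adenosine array, and the same was true with scaling on spiked-in control transcripts. All 11 macrophage markers on the array were measured, and their log2 ratios ran from -1.52 (Fcgr1, the high-affinity IgG receptor) to 1.05 (Lyz2, lysozyme). The part of this spread in the values of RAB genes was not tested. Of 30 markers of lymphocytes, granulocytes, mast cells, fibroblasts, epithelium, endothelium and erythroid cells, Zap70 (45.9 and 97.0) was the 1 measured, and the others were at 16.6 or less.

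Most RAB genes lay close to the array median with adenosine. Of the 50 genes, 35 were measured, 33 of them above the floor on both arrays, and 15 were below it on both. At least 2-fold lower were Rab43 and Rab12, 2 of 35, where 10.1% of all 6818 measured genes were. None of the 35 was at least 2-fold higher, where 4.52% of all measured genes were. At 1.5-fold or more, 6 RAB genes were lower (background 21.8%) and 3 were higher (background 12.9%). The remaining 26, or 74.3%, differed by less than 1.5-fold, against 65.3% of all measured genes. The median log2 ratio of the 35 was 0.0048, against -0.082 for all measured genes, and their interquartile range was 0.58 against 0.82. These shares describe a pair of arrays and no test was possible. With the floor at the 67th percentile, 2 of 30 measured RAB genes were at least 2-fold lower, where 6.48% of all genes measured at that floor were. As deposited, 32 of the 35 were 2-fold lower or more, where 78.8% of the genes measured on that scale were, and 0 were 2-fold higher.

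**Figure D1:**
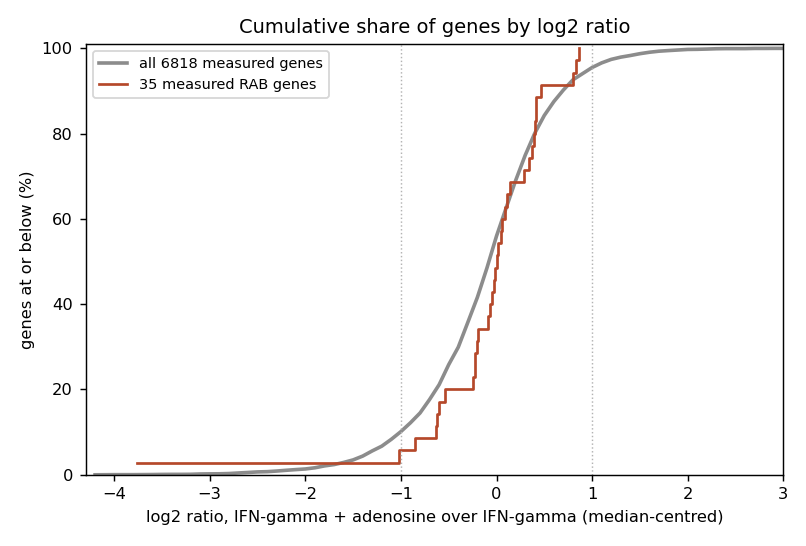
Cumulative share of genes (%, vertical axis) by median-centred log2 ratio of IFN-gamma with adenosine over IFN-gamma (horizontal axis), for all 6818 measured genes (grey line) and the 35 measured RAB genes (red steps). Dotted lines mark 2-fold. At the left dotted line the RAB steps have reached 5.71% and the grey line 10.1%, and Rab43 sits far to the left at -3.76.

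Across probe sets, 63 of the 95 were measured. At least 2-fold lower were 3 of them, 1 each for Rab43, Rab12 and Rab7b (background 9.51%). At least 2-fold higher were 2, 1 each for Rab40c and Rab23 (background 5.88%). Of 20 genes with 2 or more measured probe sets, 7 had all of them on one side of 0 and 13 did not. Rab43, Rab7b and Rab23 were the 3 genes with several measured probe sets that were all at least 1.5-fold apart in one direction. Over 18 RAB genes with a pair of probe sets bright on both arrays the SD between probe sets was 0.40.

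**Figure D2:**
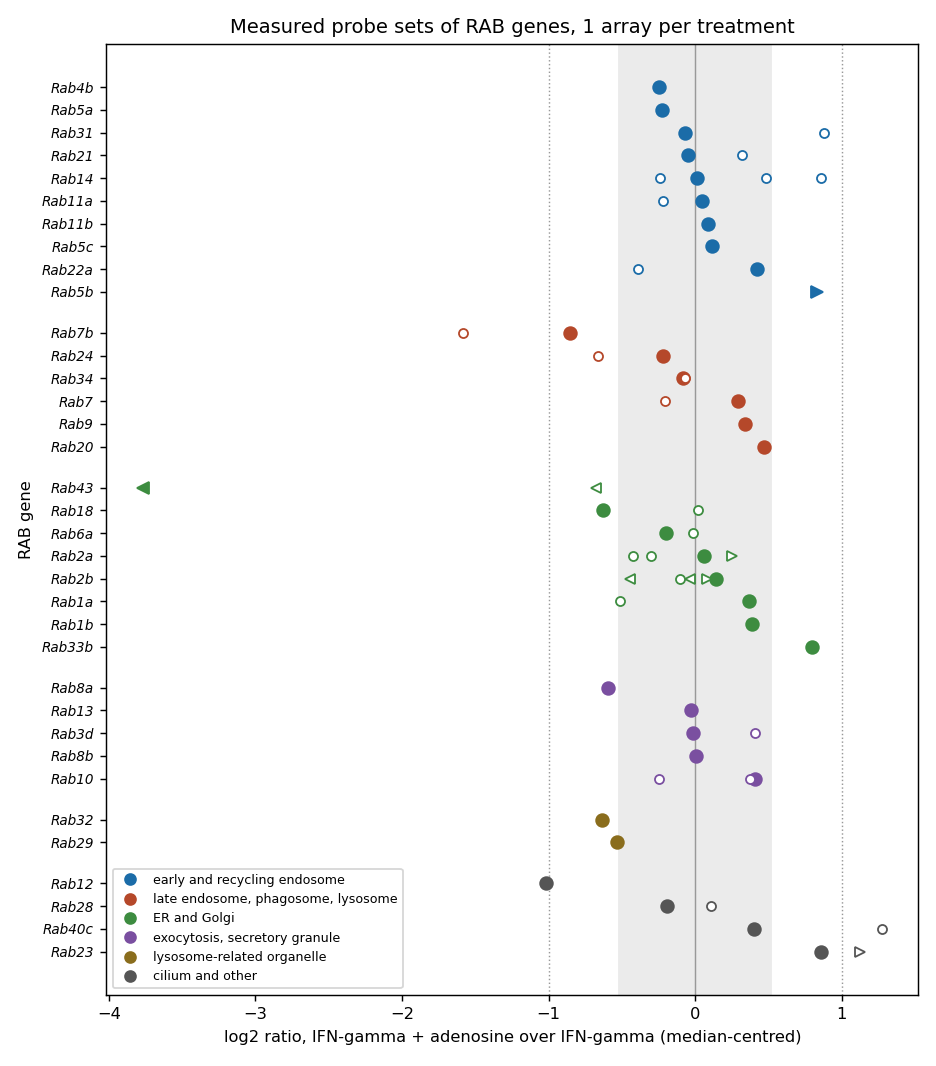
Median-centred log2 ratio (horizontal axis) of every measured probe set of the 35 measured RAB genes (vertical axis), coloured by the compartment each protein is known for. Filled symbols are the brightest probe set of a gene and open symbols its others, triangles point in the direction of a bound, the grey band is ± 0.52 (SD between probe sets) and dotted lines mark 2-fold. Of the filled symbols 25 (71.4%) lie inside the band, where 60.0% of all measured genes do, 7 lie below it and 3 above it.

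Rab43, a GTPase linked to the Golgi and to cross-presentation of antigen by dendritic cells, differed most. Its brightest probe set was at 598 on the IFN-gamma array and at 21.1 on the adenosine array (7.5 as deposited), at least 13.6-fold lower with adenosine. The second probe set was at 70.2 and 17.5, at least 1.60-fold lower. Both probe sets were thus above the floor with IFN-gamma alone and below it with adenosine, and the size of the second bound is set by how close its brighter signal was to the floor. With no floor and a pseudocount of 16 the log2 ratios were -4.05 and -1.36. With the floor at the 67th percentile the first was -1.86.

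Rab7b, a late endosomal GTPase known to act on Toll-like receptor traffic in macrophages, was lower by both of its probe sets. They were at 246.5 and 136 (log2 ratio -0.86) and at 186.5 and 62.3 (-1.58, 2.99-fold lower). All 4 signals were above the floor. The brighter probe set, whose name marks it as matching several transcripts, was short of 2-fold, so Rab7b is not in the gene count above. It enters that count when such probe sets are left out or when all probe sets of a gene are averaged (-1.22). The other Rab7 gene, Rab7, whose product drives fusion of late endosomes and phagosomes with lysosomes, was at 1694.1 and 2074 (0.29) by its brightest probe set. Its second was at 1092.8 and 948 (-0.21). The log2 ratio of Rab7b minus that of Rab7 was -1.15 by the brightest probe sets, against an SD of 0.73 for a difference between probe sets.

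Rab12, which takes part in sorting the transferrin receptor for degradation, was at 379.6 and 187 on its single probe set, 2.03-fold lower. It sat at the 2-fold mark. Its log2 ratio of -1.02 became -0.88 with quantile, -0.93 with loess, -0.95 with trimmed mean scaling and -0.96 with the pseudocount of 16, each short of 2-fold. Its probe set is also one of those matching several transcripts, so without them Rab12 is not measured and Rab7b takes its place in the count of 2. The largest log2 ratios just inside the mark were those of Rab23 (0.86) and Rab7b (-0.86).

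The DNA before the start of these genes was taken from RefSeq (GRCm38.p6), and 42 of the 50 RAB genes had such a window. Shown are the 250 bases before the most upstream listed start of Rab43 and Rab12, the genes at least 2-fold lower. Rab5a is shown beside them as the measured RAB gene whose window holds a full cAMP response element. Adenosine receptors are known to act in part through cAMP. Capitals mark letters of the motifs searched on both strands.
Rab43 (chr6:87812165-87812414, minus strand): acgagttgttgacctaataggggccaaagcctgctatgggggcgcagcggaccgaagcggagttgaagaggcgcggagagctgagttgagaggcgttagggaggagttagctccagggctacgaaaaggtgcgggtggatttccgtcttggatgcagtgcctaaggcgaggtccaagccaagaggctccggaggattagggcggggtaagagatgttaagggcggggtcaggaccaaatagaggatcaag
Rab12 (chr17:66519671-66519920, minus strand): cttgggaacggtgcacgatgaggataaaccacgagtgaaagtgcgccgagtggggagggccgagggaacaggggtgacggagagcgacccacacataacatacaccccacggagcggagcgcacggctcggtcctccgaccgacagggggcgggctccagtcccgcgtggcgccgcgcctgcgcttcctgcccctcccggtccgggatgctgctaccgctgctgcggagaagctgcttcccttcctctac
Rab5a (chr17:53478984-53479233, plus strand): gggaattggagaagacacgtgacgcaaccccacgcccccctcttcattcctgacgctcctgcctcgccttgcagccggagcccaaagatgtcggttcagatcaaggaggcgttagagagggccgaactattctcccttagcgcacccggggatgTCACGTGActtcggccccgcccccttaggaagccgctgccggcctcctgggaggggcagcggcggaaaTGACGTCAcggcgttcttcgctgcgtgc

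The motifs were the cAMP response element TGACGTCA, a core of the interferon-stimulated response element GAAANNGAA and the E-box of MITF and TFEB TCACGTGA. They were found in 1.55%, 7.13% and 0.785% of all 32851 windows of this length. Over the 54 windows of RAB genes the numbers were 2, 2 and 2. The windows of Rab43 and Rab12 printed here held none of these letters, which says only that the letters are not in these 250 bases. Rab5a held the cAMP response element from 28 to 21 bases before the start and the E-box from 96 to 89. Its signals were 896.2 and 765, a log2 ratio of -0.23. The cAMP response element was also in a window of Rab25, the interferon response core in windows of Rab20 and Rab40b, and the E-box in one of Rab21. Of these genes Rab25 and Rab40b were below the floor on both arrays, as was Rab15, of recycling endosomes. A match is a description of letters and not a binding site.

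RAB genes of early and recycling endosomes had a median log2 ratio of 0.028 by their brightest probe sets. Of 14 on the array, 10 were measured. None was 2-fold apart, where 10.1% of all measured genes were lower and 4.52% higher. Rab5 proteins drive the fusion of early endosomes, and beside Rab5a, Rab5c was at 473.3 and 511 (0.11). Rab5b was below the floor with IFN-gamma (27.5) and reached 78.4 with adenosine, a difference of at least 1.78-fold. Its deposited signals were 27.5 and 27.8, and it was the 1 measured RAB gene that was not dimmer as deposited. With loess scaling its log2 ratio was 0.20, and that of Rab5c was also 0.20. The log2 ratio of Rab5c minus that of Rab5a was 0.34, below the SD of 0.73 for a difference between probe sets. Rab5c minus Rab5b was -0.72 and Rab5b minus Rab5a was 1.06. Both are bounds that rest on 1 dim probe set of Rab5b.

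Rab11a, which returns receptors to the surface, was at 1853.5 and 1910.0 (0.043), with a second probe set at -0.22, and Rab11b at 264.8 and 281 (0.084). Rab4b, of the fast recycling route, was at 390.8 and 329.8 (-0.24), whereas Rab4a was below the floor on both arrays (15.5 and 35.5). Rab14, of traffic between the Golgi and endosomes, was at 3527.4 and 3560 (0.013) by its brightest probe set. Its 3 other measured probe sets were at -0.24, 0.48 and 0.86, a range of 1.10 on the log2 scale and the widest in the family after that of Rab43. Rab31, which also serves that route, was at 932.7 and 889 (-0.070), while its second probe set was at 295.5 and 542 (0.88). For Rab14 and Rab31 the value therefore depends on the probe set read. Rab22a, of endosomal sorting, had log2 ratios of 0.42 and -0.39, and Rab21, of integrin traffic, -0.048 and 0.32.

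Among RAB genes of late endosomes, phagosomes and lysosomes, all 6 on the array were measured, and Rab7b was the 1 beyond 1.5-fold. The background at 1.5-fold was 21.8% lower and 12.9% higher. Rab20, known as an IFN-gamma-induced regulator of phagosome maturation, was at 187.1 and 259 (0.47). Rab9, which returns mannose 6-phosphate receptors to the Golgi, was at 322.4 and 408 (0.34). Rab34, linked to the positioning of lysosomes, had 2 probe sets close together, at -0.085 and -0.068. Rab24, linked to autophagy, was at 442.4 and 379.7 (-0.22), and a second probe set at 277.3 and 175 gave -0.67.

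Of 11 RAB genes of the endoplasmic reticulum (ER) and Golgi on the array, 8 were measured, with Rab43 at one end and Rab33b at the other. Rab33b, a Golgi protein that binds the autophagy factor ATG16L1, was at 111.5 and 194 (0.80, 1.74-fold higher) on its single probe set. Its log2 ratio was -0.70 as deposited and -0.17 with spiked-in scaling. Rab1 proteins move cargo from the ER to the Golgi. Rab1a was at 4111.4 and 5307 (0.37) and Rab1b at 451.9 and 592 (0.39), but the second probe set of Rab1a, at 924 and 647, gave -0.51. Rab18, of lipid droplets and the ER, was at 983.9 and 637 (-0.63) by 1 probe set and at 567.7 and 576 (0.021) by the other. Rab2a and Rab2b, which act at the Golgi, were at 0.057 and 0.14 by their brightest probe sets, and 5 of their probe sets, bright enough on each array, lay between -0.42 and 0.14. Their 4 other measured probe sets had 1 signal below the floor and gave bounds only, and with the floor at the 33rd percentile these ran from -0.93 to 1.20. Rab6a, of transport back through the Golgi, was at -0.20 and -0.014.

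RAB genes of exocytosis and secretory granules were measured in 5 of 11 cases. Rab8a, which acts in transport to the plasma membrane, was at 604.2 and 399 (-0.60, 1.51-fold lower). Its close relative Rab8b was at 1889.0 and 1895 (0.0048). Their difference of 0.60 was below the SD of 0.73 for a difference between probe sets. Rab10, of Toll-like receptor 4 traffic, had log2 ratios of 0.41, 0.37 and -0.25. Rab13 and the granule gene Rab3d were at -0.028 and -0.018. With loess scaling Rab13, whose signals were 63.5 and 62.3, was at -0.73. The granule genes Rab27a, Rab27b and Rab37 were below the floor on both arrays, as were Rab3a, Rab3b and Rab3c.

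Both measured genes of lysosome-related organelles were below the array median, where 56.0% of all measured genes had a log2 ratio below 0. Rab32, known for melanosomes and for defence against bacteria in vacuoles, was at 658.4 and 425 (-0.63). Rab29, a partner of the kinase LRRK2 at the Golgi and lysosome, was at 212.1 and 146 (-0.54). Each has 1 probe set on the array, each was short of 2-fold, and each lay just outside the SD of 0.52. With quantile, loess and trimmed mean scaling Rab29 was inside it (-0.40, -0.44 and -0.46). Rab32 was then at -0.52, -0.54 and -0.56. The third, Rab38, was below the floor on both arrays (5.9 and 16.6).

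Of the remaining genes, Rab23 and Rab40c lay on the higher side. Rab23, which restrains Hedgehog signalling at the cilium, was at 54.1 and 98.1 (0.86) and, by a second probe set, at 37.8 and 96.1, at least 2.18-fold higher. Both IFN-gamma signals were near the floor, and loess scaling gave 0.32 and 0.59. Rab40c, which carries a SOCS box for ubiquitin ligase assembly, was at 181.6 and 239 (0.40) and, by its dimmer probe set, at 55.6 and 134 (1.27, 2.41-fold higher). As deposited, all 4 of these probe sets were dimmer with adenosine. Rab28, of photoreceptor cilia, was at -0.19 and 0.10. Besides the genes named above, Rab6b, Rab17, Rab30 and Rab33a were below the floor on both arrays.

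**Figure D3:**
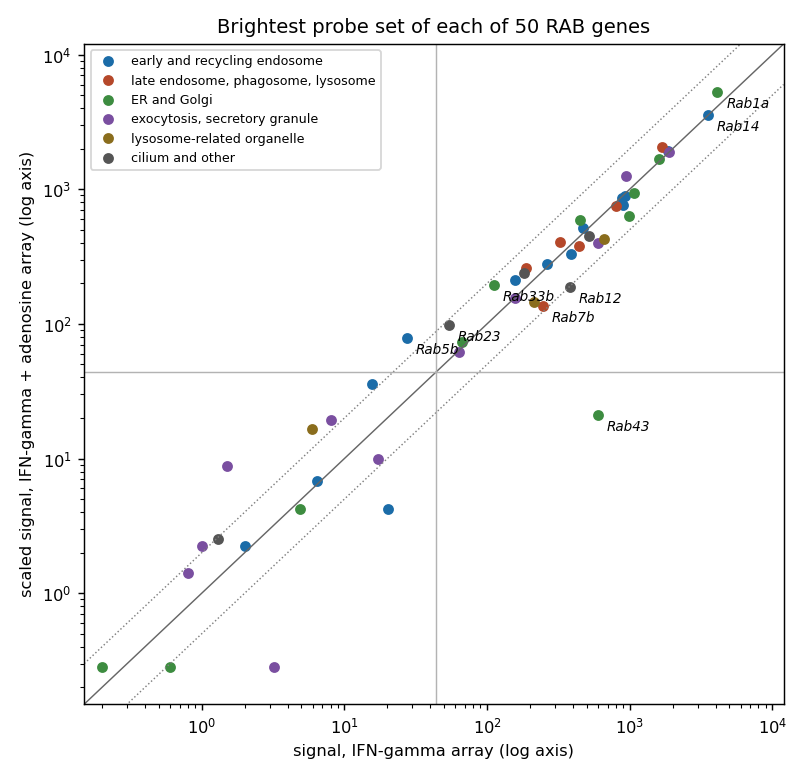
Signal of the brightest probe set of each of the 50 RAB genes on the IFN-gamma array (horizontal, log axis) and on the adenosine array after scaling (vertical, log axis), coloured by compartment. The diagonal marks equal signals, dotted lines 2-fold and grey lines the floor of 44.0. Rab43, at 598 and 21.1, lies far below the diagonal, and most points above the floor on both arrays lie between the dotted lines.

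Factors that load, anchor and unload RAB proteins were read in the same way, from lists of regulators. These lists, too, were chosen with earlier results of these data known. GEF genes tended to be lower. Of 21 measured, 6 were 2-fold lower or more (28.6%, against the background of 10.1%) and 0 were 2-fold higher, with a median log2 ratio of -0.48 and 20 of 21 below 0 (all measured genes, 56.0%). With quantile scaling 5 were 2-fold lower (all measured genes, 8.32%) and 16 were below 0. With loess scaling 7 were 2-fold lower (all measured genes, 12.6%) and 17 were below 0. With the floor at the 67th percentile 2 of 17 were 2-fold lower, where 6.48% of all genes measured at that floor were. The largest differences were in Dennd4b, whose product activates Rab10, at 335.4 and 70.5 (4.76-fold lower, 1 probe set) and in Rabgef1, which encodes the Rab5 activator Rabex-5. Rabgef1 was at 199.6 and 54.1 (3.69-fold lower), with other probe sets at -1.19 and -0.81. Rin2, another activator of Rab5, was at 304.3 and 94.1 (3.23-fold lower, 1 probe set).

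Effector genes had a median of -0.23 over 21 measured. Of these, 4 (19.0%) were at least 2-fold lower (background 10.1%) and 1 was higher (background 4.52%). With quantile or trimmed mean scaling 2 were 2-fold lower (all measured genes, 8.32% and 8.78%). Rabep1, which encodes the Rab5 effector rabaptin-5 that binds Rabex-5, was at 216.7 and 68.5 (3.16-fold lower), and its 3 other probe sets were at -1.90, -0.76 and -1.34. Ankfy1, which encodes rabankyrin-5, a further Rab5 effector, was at 412.8 and 151 (2.73-fold lower, 1 probe set). Rab11fip5, of Rab11-dependent recycling, was at 61.2 and 131 (2.15-fold higher), and its log2 ratio was -0.39 as deposited.

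GAP genes went both ways, with a median of 0.063 over 13 measured. Of these, 2 were at least 2-fold lower (background 10.1%) and 1 was higher (background 4.52%). Tbc1d10a was at 71.5 and 204 (2.86-fold higher), with a log2 ratio of 0.020 as deposited. Rabgap1 was at 156 and 61.7 (-1.34), but a second probe set gave 0.53, and Tbc1d23 was at 307.7 and 125 (-1.30), with a second probe set at -0.91. In the prenylation and GDI list, 1 of 6 measured genes was 2-fold lower (background 10.1%) and the median was -0.28. Of the 6, 3 were below 0 and 3 above. With the floor at the 33rd or the 67th percentile the list median was 0.012. Rabggtb, the catalytic subunit gene of RAB geranylgeranyl transferase, was at 612.4 and 267 (2.29-fold lower). Chm, which encodes a RAB escort protein, was at -0.69 and Rabggta, the other transferase subunit, at -0.58.

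**Figure D4:**
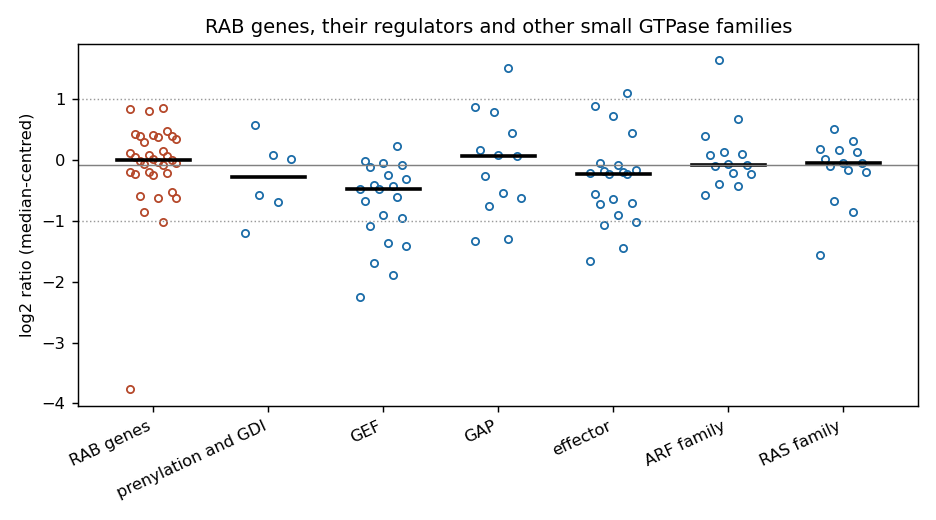
Median-centred log2 ratios (vertical axis) of measured genes in the RAB family, in 4 lists of RAB regulators and in 2 other small GTPase families (horizontal axis). Circles are genes, black bars list medians, the grey line the median of all measured genes (-0.082) and dotted lines 2-fold. The bar of the GEF list lies at -0.48 and that of the RAB genes at 0.0048.

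Other small GTPase families were set beside the RAB genes by the same counts. The ARF family, also of vesicle traffic, had a median of -0.080 over 14 measured genes. None was 2-fold lower (background 10.1%) and 1 (Arf5, 3.10-fold) was higher (background 4.52%). Sar1a followed at 0.68, with a second probe set at -0.018, and Arfrp1 at -0.58. The RAS family had a median of -0.052 over 14, with 1 (Nkiras2, 2.96-fold) lower (background 10.1%) and none higher (background 4.52%). Nras followed at -0.86, with other probe sets at -0.053 and 0.47, and Rheb at -0.68. No difference between the families was tested.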

How the data were processed

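RNA from RAW 264.7 cells was measured on 2 Affymetrix arrays, 1 per treatment. The authors deposited linear intensity values per probe set; the submitters' processing notes name GCOS, whose signal algorithm and scaling settings were not given in the sources used here. Of 22626 gene probe sets, 20380 carried 1 symbol in the platform annotation and were used.

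The log2 ratio of IFN-gamma with adenosine over IFN-gamma had its median (-1.50) subtracted, taken over probe sets bright on both arrays. The floor, the 50th percentile of scaled signals, came next. Each gene was read from its brightest probe set, with all others given beside it. With 1 array per treatment, genes were counted by size and nothing was tested. The number of arrays limits the precision. Calculations used Python 3.11.15, numpy 2.4.6, pandas 2.3.3 and statsmodels 0.14.6 (loess), and were tested on simulated data.

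The members, lists and rules were chosen with earlier results of these data known. Named were all RAB genes, with both signals for those at least 1.5-fold apart, with several measured probe sets or in paralogue groups (by log2 ratio alone where close to 0), and the 3 largest differences of each other list. A further gene family and a further motif are not reported here.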

Additional observations from a re-analysis of the deposited data

How the results depend on the processing

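No paired analysis was possible because there is a single array per treatment, so leaving out a replicate was not possible either. Against 2 RAB genes at least 2-fold lower, none higher, a median log2 ratio of 0.0048, and 3 probe sets lower and 2 higher, the values as deposited gave 32 genes lower, a median of -1.48, and 52 probe sets lower and 0 higher. Spiked-in scaling gave 15 genes lower, a median of -0.96, and 27 probe sets lower and 0 higher. As deposited 78.8% of all measured genes were 2-fold lower, and with spiked-in scaling 50.7%. The medians of all measured genes were also low under these settings, at -1.50 and -1.01. The spiked-in controls had a median log2 ratio of -0.53 as deposited. Median centring removes any shift that all genes share, and the source of the dimmer adenosine array was not tested. Quantile, loess and trimmed mean scaling each gave 1 gene lower (Rab43), where 8.32%, 12.6% and 8.78% of all measured genes were. Loess gave 0 probe sets higher. The floor at the 33rd percentile gave 3 genes higher (Rab27a, Rab4a and Rab5b), where 6.53% of all measured genes were. Of these, Rab27a and Rab4a were below the main floor on both arrays. The same setting gave 5 probe sets lower and 6 higher, and the floor at the 67th gave 0 probe sets higher. The pseudocount gave 1 gene lower and 1 higher (all measured genes, 10.0% and 4.09%). Leaving out probe sets whose names mark them as matching several transcripts gave 1 probe set higher. A 1.5-fold threshold gave 6 genes lower and 3 higher, with 9 and 7 probe sets. A 3-fold threshold gave 1 gene lower (all measured genes, 2.96%), with 1 and 0 probe sets. Rab43 was at least 2-fold lower under all 10 alternatives of scaling, floor and probe sets. The probe sets of Rab23 and Rab40c that were 2-fold higher turned to -0.15 and -0.22 as deposited. Among brightest probe sets, signs that turned under quantile, loess or trimmed mean scaling belonged to 8 genes with log2 ratios of 0.14 or less in size. Signal near the floor limits the values of Rab5b, Rab13, Rab23 and Rab2b.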
